A study of Drosophila melanogaster with 8 samples.

Results

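Unsorted cell suspensions of whole Drosophila melanogaster testes from 2 strains were compared, to describe how the strains and the tissue taken with them differed before any cell was sorted. These libraries were picked by their labelled cell population, and they are 4 of the 8 libraries of the study, with 2 per strain. The other 4 libraries held sorted fluorescent cells and are used here only to see whether a strain difference was also found in them. Of the 16018 genes in the value table, 11970 had enough reads to be tested.

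In the fly testis, germline stem cells sit around a cluster of somatic hub cells and divide to give spermatogonia, spermatocytes, spermatids and sperm. A pair of somatic cyst cells encloses each germline cyst and develops along with it. The testis is sheathed in muscle and pigment cells, joins the seminal vesicle, accessory glands and ejaculatory duct, and lies in the abdomen among fat body and gut, so a dissected testis can carry RNA of any of these. GAL4 is a yeast transcription factor that a fly enhancer switches on in chosen cells, where it activates transgenes placed behind its UAS binding sites.

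In the first strain, flies with the tj-GAL4 driver (Kyoto stock 104055) were crossed to flies with a UAS-GFP transgene (Bloomington stock 9431). In the second strain the same UAS-GFP stock was crossed to the eya-GAL4 driver described by Leatherman and Dinardo in 2008. Both strains thus carried GAL4 and green fluorescent protein, and they differed in the driver and in whatever else the parental stocks differed in. The labels do not give the age of the flies, the number pooled per library, or the eye colour alleles and marker genes of the stocks. The tj-GAL4 libraries are replicates 1 and 2. The eya-GAL4 libraries are called replicates 3 and 4 after the value table, because the sample titles number them otherwise. The labels call the replicates biological without saying which flies each came from.

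Reads assigned to genes ranged from 12280755 to 23044927 per library, and 14280 to 15036 genes had at least 1 read. Levels are given as CPM, counts scaled to the summed gene reads of the library and its TMM factor (trimmed mean of M values). Mitochondrially encoded genes took 31.7% of the gene reads in tj-GAL4 replicate 2 and 4.68% to 11% in the other 3 libraries. The tj-GAL4 replicate 1 library carried a 6-base index and the other 3 carried 8-base indexes. By reads per kilobase of gene length (RPKM, computed here on gene reads), which allow genes to be ranked against each other, CG18628, CG12699 and CG31740 were among the 10 highest in all 4 libraries, apart from the mitochondrial genes. The sperm leucylaminopeptidase gene S-Lap1 and the sperm mitochondrial protein gene loopin-1 joined them in tj-GAL4 replicate 1 and both eya-GAL4 libraries.

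The library that stood furthest from the others was tj-GAL4 replicate 2. Each library was compared for each gene with the middle value of the other 3. In tj-GAL4 replicate 2, 664 genes lay more than 4-fold above that value (5.55% of genes tested) and 335 lay more than 4-fold below it (2.8%). In tj-GAL4 replicate 1 these counts were 54 above (0.451%) and 91 below (0.76%). In eya-GAL4 replicate 3 they were 54 above (0.451%) and 26 below (0.217%), and in eya-GAL4 replicate 4 they were 37 above (0.309%) and 148 below (1.24%). Across genes, which are not independent replicates, log2 CPM of tj-GAL4 replicate 1 correlated with the eya-GAL4 libraries at 0.969 and 0.967, and with its own replicate at 0.866. The eya-GAL4 pair correlated at 0.981. Between replicates, 34.3% of genes differed by more than 2-fold in the tj-GAL4 strain and 4.86% in the eya-GAL4 strain. Of 11970 tested genes, 2310, 5072, 1843 and 2745 were lowest in tj-GAL4 replicates 1 and 2 and eya-GAL4 replicates 3 and 4. In the same order, 2553, 4933, 1684 and 2800 were highest there. Counts of list members that were highest or lowest in a library are to be read against these.

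**Figure D1:**
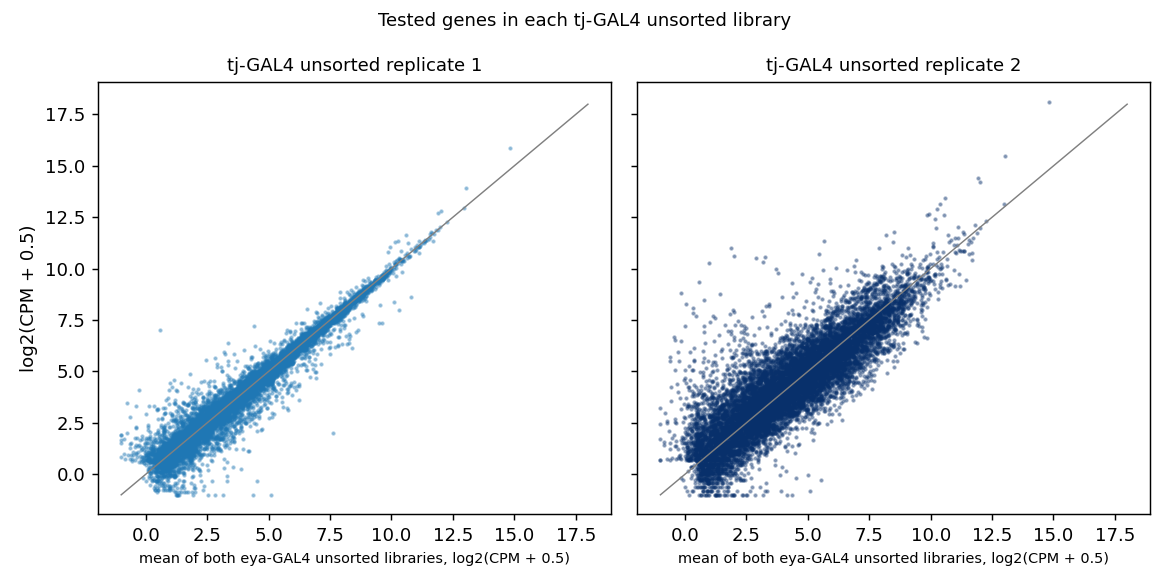
Level of each of the 11970 tested genes in tj-GAL4 unsorted replicate 1 (left) and replicate 2 (right), as log2(CPM + 0.5) on the y axis, against the mean of both eya-GAL4 unsorted libraries on the x axis. Each point is a gene and the line marks equal levels. Points scatter more widely around the line for replicate 2, in which 664 genes lay more than 4-fold above the middle of the other 3 libraries and 335 more than 4-fold below it.

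With this spread, no gene passed the test between strains. The edgeR quasi-likelihood test on the 4 libraries called 0 genes higher in tj-GAL4 and 0 higher in eya-GAL4 (0% of 11970), at a smallest Benjamini-Hochberg adjusted p of 0.556. The same test on all 8 libraries called 3 (0.024%) and 6 (0.0479%), or 0.0719% together. At an unadjusted p under 0.05 there were 490 genes (4.09%), of which 305 were higher in tj-GAL4 (2.55%) and 185 higher in eya-GAL4 (1.55%). Without a scaling factor that split was 231 higher and 259 lower, with the median of all genes shifted by -0.27 on the log2 scale. On the same genes DESeq2 called 124 higher in tj-GAL4 (1.04%) and 57 higher in eya-GAL4 (0.476%), or 1.51% together, and limma on log2(RPM + 1) called 99 (0.827%) and 26 (0.217%), or 1.04% together. Leaving out tj-GAL4 replicate 2, edgeR called 14 genes higher in tj-GAL4 (0.119%) and 52 higher in eya-GAL4 (0.441%), or 0.56% together. Leaving out tj-GAL4 replicate 1 instead, it called 2165 (18.5%) and 2470 (21.1%), or 39.5% together. Each of these last fits has 1 tj-GAL4 library, which is assumed to vary as the eya-GAL4 pair does. For these reasons the levels below are given library by library, and the words higher and lower describe levels unless a call is named.

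Levels of the driver genes overlapped between the strains. The transcription factor gene tj (FBgn0000964, dm6 2L, 19464267 to 19467758), whose protein marks early cyst cells, stood at 1.67 and 1.95 CPM in tj-GAL4 replicates 1 and 2 and at 3.01 and 1.82 CPM in eya-GAL4 replicates 3 and 4. The strains overlapped, with a log2 difference of -0.41 ± 0.47 (SE; edgeR adjusted p = 0.838). The transcription cofactor gene eya (FBgn0000320, 2L, 6527447 to 6546976), whose protein marks later cyst cells, stood at 45.0 and 16.6 CPM in tj-GAL4 and 42.3 and 51.1 CPM in eya-GAL4. The lowest value of eya was that of tj-GAL4 replicate 2, and the log2 difference was -0.60 ± 0.55 (edgeR adjusted p = 0.838).

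The summed level of 8 early cyst cell genes was 488 and 413 CPM in tj-GAL4 and 547 and 495 CPM in eya-GAL4. The summed level of 4 mature cyst cell genes was 75.6 and 72.6 CPM in tj-GAL4 and 78.9 and 76.9 CPM in eya-GAL4. That even sum held opposite moves of its 2 most abundant members in tj-GAL4 replicate 2. There eya was lowest, at 16.6 CPM, and Abd-B was highest, at 33.7 CPM. Abd-B was at 12.2 CPM in tj-GAL4 replicate 1 and at 19.5 and 9.68 CPM in eya-GAL4. Single members varied between libraries. The early cyst cell regulator gene chinmo was at 239 and 69.8 CPM in tj-GAL4 and 277 and 265 CPM in eya-GAL4. The JAK-STAT feedback inhibitor gene Socs36E was at 42.1 and 132 CPM in tj-GAL4 and 56.0 and 29.4 CPM in eya-GAL4. Of 6 hub genes, the cell adhesion gene Fas3 varied most, from 32.7 and 135 CPM in tj-GAL4 to 45.5 and 22.5 CPM in eya-GAL4. The niche ligand gene upd1 was at 20.3, 14.3, 17.4 and 20.8 CPM in the same order of libraries. In suspensions of whole tissue, fewer cells of a type and less RNA per cell cannot be told apart.

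All 4 libraries held abundant transcripts of the testis germline. Genes of the stages up to meiosis were lowest in tj-GAL4 replicate 2 and level in the other 3 libraries, while late germline genes were not low there. Among 13 spermatocyte genes, 13 had their lowest value in tj-GAL4 replicate 2, against 5072 of all 11970 tested genes. The list summed to 9336, 4346, 8977 and 9785 CPM in tj-GAL4 replicates 1 and 2 and eya-GAL4 replicates 3 and 4. The testis tubulin gene betaTub85D, whose product builds meiotic spindles and the sperm axoneme, was at 3444, 1744, 3150 and 3366 CPM in that order. The cyclin gene CycB3 was at 140, 14.1, 116 and 136 CPM, so tj-GAL4 replicate 2 was the only library apart. Among 12 meiotic arrest genes, which switch on the spermatocyte transcription programme, 12 were lowest in that library, with topi, a zinc finger member, at 137, 42.8, 120 and 121 CPM. Among 19 genes of germline stem cells and spermatogonia, 17 were lowest there, with bgcn, a partner of the differentiation factor bam, at 132, 42.6, 141 and 153 CPM. The exception with the highest level was tud, a germ plasm gene, at 186, 263, 207 and 169 CPM.

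The 11 tested Y-linked genes, several of which encode dyneins of the sperm tail that spermatocytes transcribe, summed to 657, 252, 684 and 693 CPM. The dynein gene kl-5 was at 220, 75.4, 248 and 237 CPM, and 10 of 11 members were lowest in tj-GAL4 replicate 2. Spermatid genes gave another order. The 16 cup and comet genes, which are transcribed after meiosis, summed to 3412, 3710, 3075 and 3391 CPM, with 10 of 16 highest in tj-GAL4 replicate 2. The 26 genes of sperm chromatin and tail summed to 34776, 42047, 32582 and 34754 CPM, with 15 of 26 highest there. Of all 11970 tested genes, 4933 were highest in that library. Outside that library the 4 germline lists up to meiosis differed little. Without it, the median log2 difference between strains was 0.18 for stem cell and spermatogonial genes, 0.01 for meiotic arrest genes, -0.02 for spermatocyte genes and -0.04 for Y-linked genes, against -0.01 for all genes, and edgeR called 0 members of these lists and 0.56% of all genes.

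**Figure D2:**
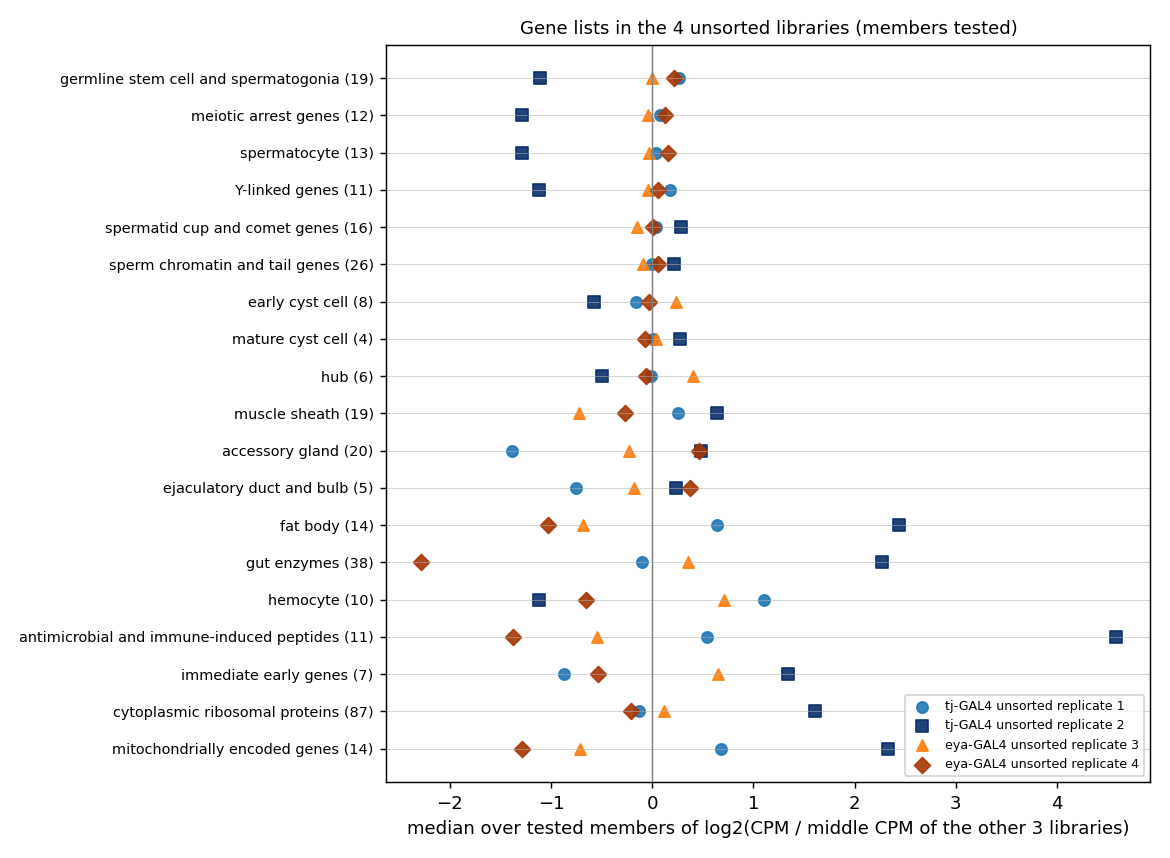
For each gene list (y axis, with the number of members tested), the median over members of log2 CPM relative to the middle value of the other 3 libraries (x axis), with 1 symbol per unsorted library. tj-GAL4 replicate 2 lies near -1.1 to -1.3 for the germline lists up to meiosis and at 2.27 or above for gut, fat body, immune peptide and mitochondrial genes, while accessory gland genes lie lowest in tj-GAL4 replicate 1 and gut enzymes lowest in eya-GAL4 replicate 4.

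Accessory gland genes were lowest in tj-GAL4 replicate 1. These genes encode seminal fluid proteins made in the glands that join the male duct next to the testis. Of 20 members, 19 had their lowest value in that library, and the list summed to 2249 CPM in tj-GAL4 replicate 1, 7978 in tj-GAL4 replicate 2, 5869 in eya-GAL4 replicate 3 and 7665 in eya-GAL4 replicate 4. No member was at 0 reads in any library. Acp36DE, whose product is needed for sperm storage in the mated female (2L, 18356047 to 18359028), was at 390 and 619 CPM in tj-GAL4 and 1550 and 1995 CPM in eya-GAL4, the only gene of the list with more than 2-fold between the strains in every library. Mst57Db, the most abundant member, was at 336 and 2433 CPM in tj-GAL4 and 935 and 1301 CPM in eya-GAL4, so the tj-GAL4 libraries lay on either side of the eya-GAL4 pair. SP, the sex peptide gene, was at 13, 54, 24.7 and 41.6 CPM in the usual order.

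The accessory gland list had a median log2 difference of -0.23 with all 4 libraries and of -1.37 without tj-GAL4 replicate 2, when edgeR called 6 of 20 members lower in tj-GAL4 (0.441% of all genes were called in that direction). Genes of the ejaculatory duct and bulb followed the glands in sum, at 480, 1678, 1013 and 1301 CPM, with the esterase gene Est-6 at 162, 735, 625 and 842 CPM. The bulb gene EbpII did not, at 122, 30.8, 105 and 119 CPM. The andropin gene Anp, which encodes an antimicrobial peptide of the ejaculatory duct (3R, 30209948 to 30210382), went the other way at 65.2 and 92.9 CPM in tj-GAL4 and 14.7 and 16.6 CPM in eya-GAL4. Its strains did not overlap, at a log2 difference of 2.34 ± 0.33 (edgeR adjusted p = 0.556, and 0.031 without tj-GAL4 replicate 2).

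Gut enzyme genes spanned the widest range of the tissue lists, and the replicates differed within each strain. Their summed level was 534 and 8043 CPM in tj-GAL4 and 1221 and 146 CPM in eya-GAL4. Of 38 tested members, 29 were highest in tj-GAL4 replicate 2 and 31 were lowest in eya-GAL4 replicate 4. In eya-GAL4 replicate 4, 4 of the 43 members in the table had 0 reads, and in each other library 1 or 2 did. The Jonah serine protease gene Jon65Aiv, secreted by the midgut, was at 56.6 and 1506 CPM in tj-GAL4 and 48.5 and 1.33 CPM in eya-GAL4. The trypsin gene thetaTry was at 21.1 and 1229 CPM in tj-GAL4 and 6.02 and 0.0983 CPM in eya-GAL4. The lysosomal mannosidase gene LManV differed from the proteases, at 12.9 and 0.311 CPM in tj-GAL4 and 180 and 11.4 CPM in eya-GAL4, with eya-GAL4 replicate 3 highest and tj-GAL4 replicate 2 lowest.

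Of the 10 genes highest in tj-GAL4 replicate 2 relative to the other libraries, 2 are on the gut enzyme list, thetaTry and Peritrophin-15a. The 10 were CG14500, lncRNA:CR40469, thetaTry, CG6277, Vha100-4, CG8661, CG6283, CG5767, Peritrophin-15a and Pgcl. CG14500 led at 453 CPM against 3.10, 0.441 and 0.344 CPM in tj-GAL4 replicate 1 and eya-GAL4 replicates 3 and 4. CG6277 reached 2066 CPM there and 0.639 to 14.9 CPM in the other 3 libraries. Peritrophin-15a, which encodes a chitin-binding protein of the membrane that lines the gut, reached 353 CPM there and 0.295 to 4 CPM elsewhere. The proton pump subunit gene Vha100-4 was at 274 CPM there, 9.47 CPM in tj-GAL4 replicate 1 and 1.10 and 0.491 CPM in eya-GAL4. The 10 lowest there were CG12498, CG3526, Hasp, lint, CG12057, Muc4B, LManV, lncRNA:CR46063, CG9518 and CG7916. CG12057 shows a loss in that library alone, at 0.0779 CPM against 18.8, 15.3 and 13.7 CPM, while 7 of the 10 were below both eya-GAL4 libraries by more than 2-fold in tj-GAL4 replicate 1 as well.

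**Figure D3:**
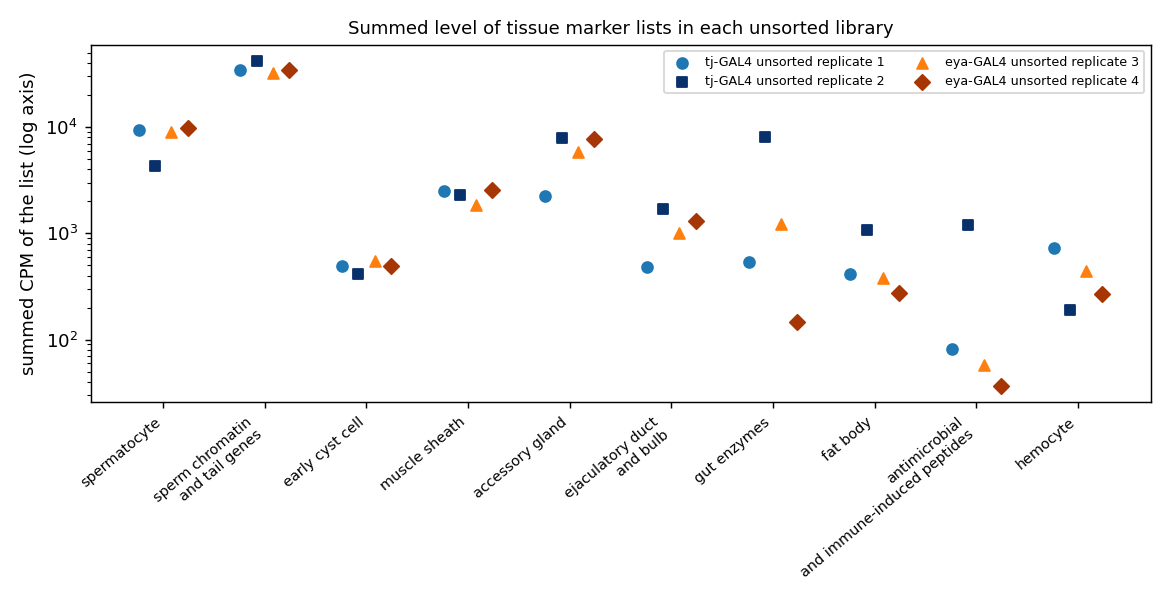
Summed CPM of the members of 10 tissue and stage lists (x axis) in each of the 4 unsorted libraries (y axis, log scale). Early cyst cell genes stay between 413 and 547 CPM, whereas gut enzymes range from 146 to 8043 CPM and immune peptides from 36.6 to 1209 CPM.

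Fat body genes were highest in tj-GAL4 replicate 2 and higher in tj-GAL4 replicate 1 than in either eya-GAL4 library in sum, at 413, 1070, 382 and 274 CPM. The fat body is the insect liver and fat store. Of 14 tested members, 13 were highest in tj-GAL4 replicate 2 and 9 were higher in both tj-GAL4 libraries than in both eya-GAL4 libraries, against 17% of all genes. The storage protein gene Lsp2 was at 12.7 and 57.3 CPM in tj-GAL4 and 5.43 and 4.91 CPM in eya-GAL4. Fbp1, which encodes the receptor through which the fat body takes storage proteins back up (3L, 14094589 to 14098053), was at 16.5 and 60.2 CPM in tj-GAL4 and 0.294 and 0.344 CPM in eya-GAL4. Fbp2 was at 9.64 and 33.2 CPM in tj-GAL4 and 0.0734 and 0.491 CPM in eya-GAL4. Fbp1 and Fbp2 were under 1 CPM in both eya-GAL4 libraries, so they were tested only because of their tj-GAL4 levels. Members tested in this way can lie on the tj-GAL4 side only, and they add to the count of 9 through the filter. FASN1, the fatty acid synthase gene, overlapped between strains at 147, 207, 181 and 108 CPM. The fat body list had a median log2 difference of 2.02 against 0.00 for all genes, and of 0.31 without tj-GAL4 replicate 2, when edgeR called 0 of 11 tested members and 0.56% of all genes.

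Antimicrobial and immune-induced peptide genes summed to 81.5, 1209, 57.6 and 36.6 CPM, with 10 of 11 tested members highest in tj-GAL4 replicate 2. The cecropin gene CecA1 made up most of the sum there, at 632 CPM against 8.78, 19.2 and 20.6 CPM. Drs, which encodes the antifungal peptide drosomycin, had no such peak, at 36.1 and 45.0 CPM in tj-GAL4 and 11.9 and 5.16 CPM in eya-GAL4. The immune-induced peptide genes IM2 and IM3 lie next to each other on 2R. IM3 was at 10.1 and 154 CPM in tj-GAL4 and 3.82 and 1.67 CPM in eya-GAL4. CG15067, IM2, IM3 and Idgf5 are neighbours that were each higher by more than 2-fold in every tj-GAL4 library.

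Markers of blood cells, muscle and stress moved in other orders. The hemocyte list, 12 genes of which 10 were tested, summed to 733, 192, 439 and 269 CPM, highest in tj-GAL4 replicate 1 and lowest in tj-GAL4 replicate 2. Col4a1 and vkg, at 318 and 162 CPM in tj-GAL4 replicate 1, made up most of the sum there. Of the 10 tested members, 6 were highest in tj-GAL4 replicate 1. In tj-GAL4 replicate 2, 7 were lowest and 2 were highest. The clotting protein gene Hml was at 127, 4.90, 68.4 and 42.3 CPM in the usual order. Muscle genes were lowest in eya-GAL4 replicate 3 for 15 of 19 members and summed to 2513, 2290, 1850 and 2569 CPM. The muscle myosin light chain gene Mlc2 was at 112, 133, 53.3 and 80.7 CPM. Of 19 muscle members, 9 did not overlap between strains, all higher in tj-GAL4, against 17% of all genes. The most abundant member, sls, was not among them, at 722, 235, 718 and 826 CPM, lowest in tj-GAL4 replicate 2. Act87E, next in level, overlapped between strains at 431, 570, 351 and 433 CPM. The 7 immediate early genes, which cells switch on within minutes of a stimulus, were all lowest in tj-GAL4 replicate 1, and their sum was 255, 764, 500 and 294 CPM. The Fos gene kay was at 92.0, 337, 230 and 99.2 CPM.

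Lists of more general functions were mostly higher in tj-GAL4 replicate 2 as well. Glutathione S-transferase genes, which encode detoxifying enzymes, summed to 1966 and 2762 CPM in tj-GAL4 and 1812 and 1547 CPM in eya-GAL4, with GstD1 at 332, 864, 346 and 216 CPM. Cytochrome P450 genes summed to 837, 1814, 1053 and 766 CPM and UDP-glycosyltransferase genes to 53.5, 201, 106 and 89.4 CPM. Odorant binding protein genes, some of which are made in fat body and reproductive tract, summed to 1040, 2119, 915 and 939 CPM. Obp44a, their most abundant member, was at 553 and 886 CPM in tj-GAL4 and 372 and 391 CPM in eya-GAL4 without overlap, and Obp99c was at 14.6 and 137 CPM against 7.56 and 3.34 CPM. Heat shock genes summed to 6209, 7872, 5894 and 5714 CPM. The inducible chaperone gene Hsp68 was at 743 and 916 CPM in tj-GAL4 and 522 and 541 CPM in eya-GAL4, so the strains did not overlap. Of 13 tested heat shock members, 12 were highest in tj-GAL4 replicate 2. The most abundant member, Hsp83, was lowest there and overlapped between strains, at 3307 and 2880 CPM in tj-GAL4 and 3494 and 3229 CPM in eya-GAL4.

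Other lists were lower there, stood in another order or were hardly present anywhere. DNA replication genes summed to 197, 113, 183 and 185 CPM and proteasome genes to 5601, 4414, 5138 and 5691 CPM. Neuron genes summed to 89.9 and 57.7 CPM in tj-GAL4 and 127 and 107 CPM in eya-GAL4, and the active zone gene brp, at 73.7, 30.8, 106 and 91.1 CPM, made up most of that. The neuron gene elav went the other way, at 4.21, 15.3, 5.95 and 4.62 CPM. Of 7 tested neuron members, 4 were lowest and 2 were highest in tj-GAL4 replicate 2. Malpighian tubule genes summed to 37.9 and 80.2 CPM in tj-GAL4 and 81.1 and 57.4 CPM in eya-GAL4, lowest in tj-GAL4 replicate 1. Eggshell genes summed to between 16.4 and 20.5 CPM and yolk protein genes to between 1.72 and 5.06 CPM. The Stellate genes, repeated genes that intact testes keep silent, summed with their suppressors to at most 1.25 CPM. The Turandot stress peptide genes summed to between 0.737 and 8.25 CPM. No member of the Stellate and Turandot lists had enough reads to be tested.

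Cytoplasmic ribosomal protein genes were highest in tj-GAL4 replicate 2 for 82 of 87 members, with sums of 11589, 34931, 12839 and 11079 CPM. The 14 tested mitochondrially encoded genes were all highest there, and 13 of the 14 were higher in both tj-GAL4 libraries than in both eya-GAL4 libraries, against 17% of all genes. The dosage compensation RNA lncRNA:roX1, made by the male X chromosome in somatic cells, was at 108, 852, 205 and 113 CPM. By transcript length, the median log2 ratio of tj-GAL4 replicate 2 to the middle of the other libraries went from 0.28 in the shortest of 5 equal length classes to -0.23 in the longest. The part that tissue carried with the testis, transcript length or the mitochondrial share had in any single gene's difference was not tested. Among 34 lists with tested members, none changed the sign of its ratio in that library, relative to all genes, under any of the 4 scalings tried, except that the mitochondrially encoded list was not run under the scaling that leaves those genes out.

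A small set of genes separated the strains in every library, whichever way the tj-GAL4 replicates differed. Strains did not overlap for 2037 genes higher in tj-GAL4 (17%) and 2309 higher in eya-GAL4 (19.3%), which is 36.3% of genes. The gap was taken as the lowest library of the higher strain over the highest library of the other, on CPM + 0.5. It exceeded 2-fold for 121 genes higher in tj-GAL4 (1.01%) and 99 higher in eya-GAL4 (0.827%). The genes named next were chosen after their values were seen, because no gene passed the test that the planned choice required. They are those with the widest gaps among genes with a mean of at least 5 CPM over all unsorted libraries.

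Among genes higher in tj-GAL4 the noncoding RNA gene lncRNA:CR40469 (X, 122493 to 122706) had the widest gap, at 130 and 656 CPM in tj-GAL4 and 1.40 and 0.688 CPM in eya-GAL4. Its log2 difference was 8.57 ± 1.2 (edgeR adjusted p = 0.556) and 7.01 ± 0.33 without tj-GAL4 replicate 2 (adjusted p = 0.0257). Fbp1 and Fbp2 came next, then the pseudogene CR43142, at 9.47 and 10.4 CPM against 0.441 and 0.786 CPM. AstCC, which encodes an allatostatin neuropeptide, was at 10.7 and 12.8 CPM in tj-GAL4 and 2.13 and 1.47 CPM in eya-GAL4. CG31710 was at 11.9 and 8.49 CPM against 1.32 and 1.23 CPM, and CG45154 at 8.17 and 10.4 CPM against 0.661 and 1.08 CPM. The replicates of tj-GAL4 differed by less than 1.5-fold for these last 4 genes, in contrast to the gut and fat body genes.

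Among genes higher in eya-GAL4 the widest gaps belonged to CG12498 and CG3526, which are taken up below with the region around w. Muc4B, a mucin-like gene (X, 4244095 to 4246139), was at 0.286 and 0.389 CPM in tj-GAL4 and 22.0 and 23.0 CPM in eya-GAL4, a log2 difference of -6.06 ± 0.42 (edgeR adjusted p = 0.556, and 0.0257 without tj-GAL4 replicate 2). CG9518 was at 0.694 and 0.467 CPM against 13 and 15.6 CPM. The noncoding RNA gene lncRNA:CR34335 reached 238 and 158 CPM in eya-GAL4 and stood at 3.47 and 17.4 CPM in tj-GAL4. Hasp, a gene for a scaffold protein of the synaptic cleft, was at 1.71 and 0 CPM against 18 and 16.9 CPM. HERC2, which encodes a large ubiquitin ligase (X, 20394395 to 20412247), differed less but from high levels, at 77.6 and 80.0 CPM in tj-GAL4 and 223 and 231 CPM in eya-GAL4. Replicates of either strain lay close together for HERC2, whose log2 difference was -1.53 ± 0.25 (edgeR adjusted p = 0.676, and 0.031 without tj-GAL4 replicate 2).

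**Figure D4:**
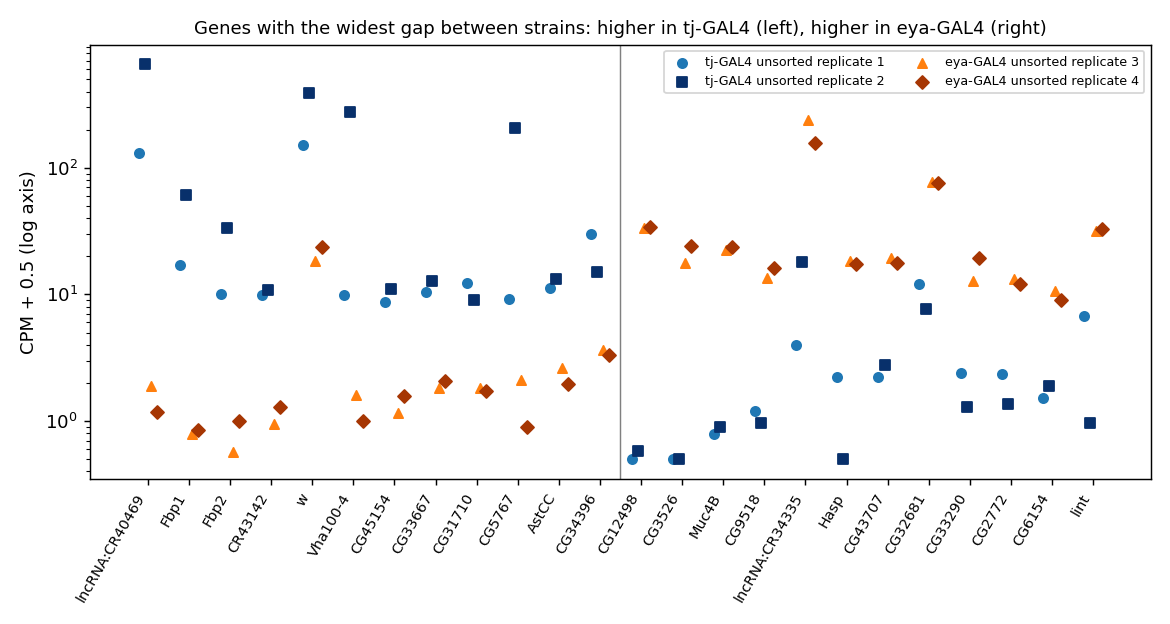
Level of the 12 genes with the widest gap in each direction, as CPM + 0.5 on a log axis, with 1 symbol per unsorted library. Only genes with a mean of at least 5 CPM over all unsorted libraries were ranked. For the genes on the left both tj-GAL4 libraries lie above both eya-GAL4 libraries, as for w at 150 and 390 against 18 and 23.4 CPM, and for the genes on the right below, as for CG32681 at 11.6 and 7.16 against 76.5 and 75.5 CPM.

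DESeq2, limma, the fit to all 8 libraries and edgeR without tj-GAL4 replicate 2 were compared gene by gene. The genes called by all 4 were CG12498, CG14082, CG3526, CG9518, CR45499 and lncRNA:CR46063, all higher in eya-GAL4, and lncRNA:CR40469, higher in tj-GAL4. CG14082 was at 0.286 and 0.234 CPM in tj-GAL4 and 8.30 and 10.5 CPM in eya-GAL4. A further 10 genes were called by 3 of the 4, among them w, Fbp1, CG31710 and CG34396 higher in tj-GAL4 and CG32681, CG43707, Hasp and Muc4B higher in eya-GAL4. These fits share libraries and are not independent of each other.

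The sorted libraries of the same strains gave a check in other libraries, although there the strain goes with the cyst cell stage by design. Of the 121 genes higher in tj-GAL4 suspensions by more than 2-fold, 56 were also higher in both sorted tj-GAL4 libraries than in both sorted eya-GAL4 libraries (46.3%, against 29.8% of all genes), 28 were lower in both, and 37 overlapped. Of the 99 genes higher in eya-GAL4 suspensions, 54 were on the same side among the sorted libraries (54.5%, against 27.1% of all genes), 8 were on the other side, and 37 overlapped. The genes thetaTry, CG14500 and Pgcl were among the 28 genes that lay on opposite sides in suspensions and sorted cells.

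Some transcripts were found in the libraries of 1 strain and nearly absent from those of the other. With at most 2 reads over the 4 libraries of the other strain and at least 30 over its own, sorted ones included, 20 genes were found in eya-GAL4 and 33 in tj-GAL4. Of the 20 genes, 17 had reads in every eya-GAL4 library, 10 lay on the X chromosome and 12 were not protein-coding. Of the 33 genes, 25 had reads in every tj-GAL4 library, 3 lay on the X chromosome and 11 were not protein-coding. For comparison, 1818 of all 11970 tested genes lay on the X chromosome, and the noncoding share of all genes was not counted. The X-linked genes found in eya-GAL4 include CG12498, CG14416, CG14419, CG3526 and CG3588, which lie in the run next to w described below. These limits were set after the values were seen. The tj-GAL4 libraries held 7.94e+07 gene reads together and the eya-GAL4 libraries 6.16e+07, so the numbers of genes are not at equal depth. Some genes rested mostly on 1 library. In tj-GAL4 replicate 2, CG34291 had 59 of its 61 tj-GAL4 reads and CG30479 had 132 of 144. In eya-GAL4, CG13403 had 209 of its 258 reads in 1 sorted library.

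Among protein-coding genes found in tj-GAL4, CG15116 had 80 and 114 reads in the tj-GAL4 suspensions and 40 and 75 in the tj-GAL4 sorted libraries, and 0 in all 4 eya-GAL4 libraries. Its level in the suspensions was at least 58.8-fold higher in tj-GAL4, counted against 3 reads over both eya-GAL4 suspensions. The odorant receptor gene Or22b had 69 and 32 reads in the tj-GAL4 suspensions and 28 and 62 in the sorted libraries, against 0 and 2 in the eya-GAL4 suspensions and 0 in the sorted ones. Among noncoding genes found in eya-GAL4, lncRNA:CR46063 had 100 and 196 reads in the suspensions and 31 and 44 in the sorted libraries, and 0 in all 4 tj-GAL4 libraries, at least 108-fold higher by the same rule. The pseudogene CR45499 had 84 and 146 reads in the eya-GAL4 suspensions and 0 in each tj-GAL4 library, at least 84.3-fold higher. It lies 9.15 kb from the start of CG45154, which was higher in tj-GAL4. Intervals and bounds on reads cover counting error only.

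The eye colour gene w, for white, and its neighbours on the X chromosome held several strain differences side by side. The white protein transports pigment precursors, and a shortened copy of w is the common visible marker of fly transgenes. Gene counts do not tell reads of the chromosomal w from reads of such a copy. In the suspensions w (FBgn0003996, X, 2790599 to 2796466) had 3664 and 5006 reads in tj-GAL4, or 150 and 390 CPM, and 245 and 476 reads in eya-GAL4, or 18 and 23.4 CPM. Its log2 difference was 3.70 ± 0.60 (edgeR adjusted p = 0.676) and 2.84 ± 0.18 without tj-GAL4 replicate 2 (adjusted p = 0.028). The sorted libraries had the opposite order, with w at 197 and 196 CPM in tj-GAL4 and 268 and 284 CPM in eya-GAL4 (scaled over all 8 libraries).

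Next to w, a run of 7 genes was nearly silent in the counts of every tj-GAL4 library. From CG12498 to CG3588, over 114.5 kb, these genes had 3 reads in the 4 tj-GAL4 libraries together and 4069 reads in the 4 eya-GAL4 libraries. CG12498 (X, 2809881 to 2810846) had 0 and 1 reads in the tj-GAL4 suspensions and 451 and 689 in the eya-GAL4 suspensions, a ratio of 1253 in levels with an exact 95% interval from 224 to 49535. Its sorted libraries had 0 and 1 reads in tj-GAL4 and 140 and 254 in eya-GAL4. CG3526 (X, 2890768 to 2894232) had 0 reads in both tj-GAL4 suspensions and 234 and 477 in eya-GAL4, which makes it at least 260-fold higher there. Its sorted libraries had 0 and 1 reads in tj-GAL4 and 550 and 951 in eya-GAL4, so the difference was found in suspensions and sorted cells.

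The weaker members of the run gave the same picture. CG14416 had 0 reads in all 4 tj-GAL4 libraries, 33 and 34 in the eya-GAL4 suspensions and 14 and 8 in the eya-GAL4 sorted libraries. CG3588 had 0 reads in all 4 tj-GAL4 libraries, 19 and 53 in the eya-GAL4 suspensions and 11 and 23 in the sorted ones. CG14419 was found mostly in sorted eya-GAL4 cells, at 30 and 87 reads, with 4 and 1 in the suspensions and 0 in every tj-GAL4 library. CG14417 and CG14418 had at most 4 reads in any library, too few to compare. Past the run, CG14424 and CG32793 had 7 or fewer reads per library in both strains, and CG3592 (X, 2935127 to 2935966) had 124 and 59 reads in the tj-GAL4 suspensions and 69 and 122 in eya-GAL4.

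The gene kirre, which encodes a cell adhesion protein for muscle founder cells and spans the whole interval (X, 2740384 to 3134532), was at 2.74 and 4.28 CPM in tj-GAL4 and 12.6 and 18.1 CPM in eya-GAL4. Its transcribed region contains w and the run, while its deposited gene length is 5977 nt. Whether reads of genes inside that region entered its count was not tested. Within 250 kb of w, 6 of 46 tested genes were separated by more than 2-fold (13%, against 1.84% of all genes), w being higher in tj-GAL4 and kirre, CG12498, CG14416, CG3526 and CG3588 higher in eya-GAL4. On the other side of w, CG32795, which ends next to it, had 738 and 631 reads in tj-GAL4 and 475 and 660 in eya-GAL4. The deposited counts cannot tell DNA missing from a strain from genes that it does not transcribe.

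**Figure D5:**
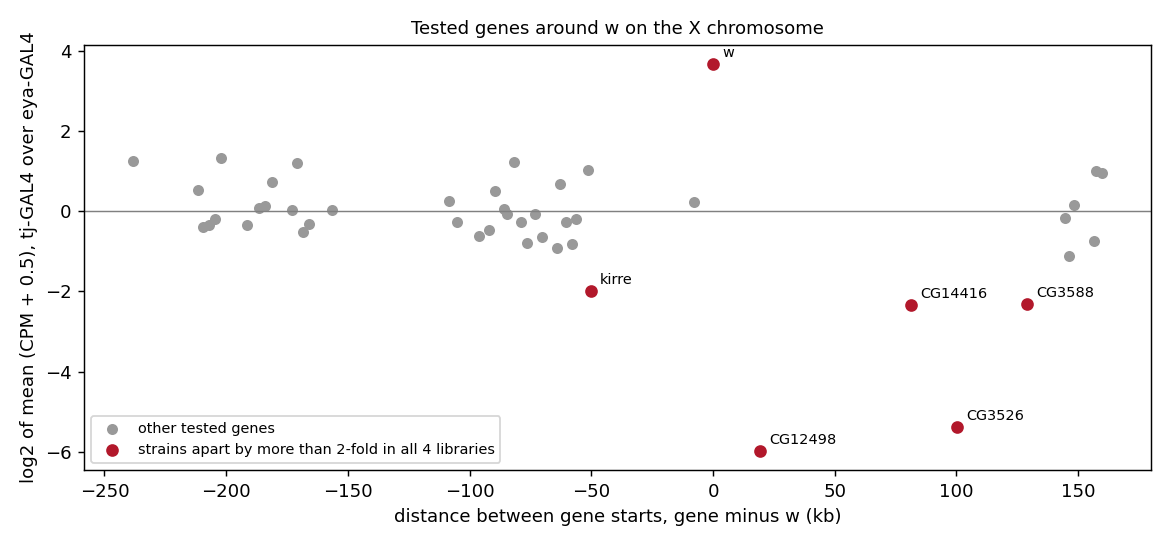
Log2 ratio of the mean level in tj-GAL4 over that in eya-GAL4 suspensions, on CPM + 0.5 (y axis), for the tested genes within 250 kb of w, by the distance of their start from that of w in kb (x axis). Red points are genes whose strains were apart by more than 2-fold in all 4 libraries, and the 4 of them to the right of w are those with 0 or 1 read per tj-GAL4 suspension.

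Over the chromosome arms, the genes separated by more than 2-fold were spread unevenly. On the X chromosome 16 of 1818 tested genes were higher in tj-GAL4 and 31 were higher in eya-GAL4 (1.71% of them). On 2R the order was turned, with 31 of 2348 genes higher in tj-GAL4 (1.32%) and 8 higher in eya-GAL4. Arm 2L had 23 and 24 of 2382, 3L had 23 and 24 of 2342, and 3R had 28 and 12 of 2940, while neither the 82 genes of chromosome 4 nor the 13 of the Y chromosome included any. Counts at neighbouring genes are not independent. Separated genes that were next to each other among tested genes formed 17 pairs, 11 of which were higher in the same strain. On the X chromosome CG33667, CG33666 and CG33665 formed a run higher in tj-GAL4, with CG33667 at 10 and 12.3 CPM in tj-GAL4 and 1.32 and 1.57 CPM in eya-GAL4. CG33665 had 58 and 64 reads in the tj-GAL4 suspensions and 0 in the eya-GAL4 suspensions, and 18 and 50 against 1 and 0 in the sorted libraries.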

How the data were processed

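Poly(A)+ RNA was sequenced with a directional kit, per the labels' protocols. The submitters' processing notes name FastQC, Bowtie 1.2.2, HTSeq, DESeq2 and dm6. The table that the authors deposited gives raw read counts per gene, and the authors' RPM (deposited as reads over a library total). The sources used here give neither strand setting nor annotation release. Per-library and averaged value columns numbering 24 stayed unused. Of 16018 gene names, 15164 matched a current symbol, 798 a synonym and 56 nothing.

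Counts of the 4 unsorted libraries were tested with edgeR 4.0.16 (quasi-likelihood, TMM) on genes at a CPM of at least 1 in at least 2 libraries, two-sided, called at a Benjamini-Hochberg adjusted p under 0.05. Residual degrees of freedom were 2. The SE given after ± was derived from the test, as the size of the log2 difference over the square root of its F statistic. Alternatives were DESeq2 1.42.0, limma 3.58.1 on log2(RPM + 1), other scalings and filters, all 8 libraries together, and each library left out. The code was tested on simulated data.

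The rule for naming genes took tj and eya, the widest gaps among called genes, and the 10 genes highest and lowest in a library standing apart. Per list it took the members called and the 2 of highest level. Not every gene under this rule is named in the text, and the members shown for a list may not be its 2 most abundant. Other genes were named after their values were seen. The comparison, the 36 gene lists and the rule were chosen with earlier results of these data known.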

Additional observations from a re-analysis of the deposited data

How the results depend on the processing

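The count of 0 genes called in each direction held under both other scalings, without mitochondrially encoded genes, under both other filters and with a robust prior. All 8 libraries in the same edgeR fit gave 3 genes higher in tj-GAL4, 6 higher in eya-GAL4 and 1 called member over all lists. DESeq2 gave 124, 57 and 25, and limma gave 99, 26 and 27. The share of all genes called was 0.0719% with all 8 libraries, 1.51% with DESeq2 and 1.04% with limma. The shares for fits that leave out a tj-GAL4 library are given above. Counts of called members in this paragraph are not set against the number of members tested, so they are no result about the lists. Leaving out a library gave 0 to 2165 genes higher in tj-GAL4, 0 to 2470 higher in eya-GAL4 and 0 to 348 list members. The high end of each came without tj-GAL4 replicate 1, which leaves libraries with 8-base indexes only. Without tj-GAL4 replicate 2 these were 14, 52 and 8, and without either eya-GAL4 library they were 0.

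Genes separated by more than 2-fold numbered 121 higher in tj-GAL4 and 99 higher in eya-GAL4. At a CPM of at least 5 they numbered 65 and 60, on fewer genes, and without a scaling factor 150 were higher in eya-GAL4. Leaving out a library gave 134 to 1676 and 86 to 1662. They were 1676 and 1662 without tj-GAL4 replicate 1, 333 higher in eya-GAL4 without tj-GAL4 replicate 2, and 426 higher in tj-GAL4 without eya-GAL4 replicate 3. The log2 difference of CG12057 was -0.60, and 0.37 without tj-GAL4 replicate 2, where its level is lowest; leaving out a library gave -7.37 to 0.37. The window around w was chosen after seeing the data. Within 100 kb 4 of 21 genes were separated by more than 2-fold, and within 1000 kb 7 of 165. No paired analysis was possible because the value table numbers the unsorted eya-GAL4 libraries otherwise than the sample titles do.

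The test between strains rested on 2 residual degrees of freedom, so a gene that was not called is not shown to be equal between strains. Genes with few reads, such as CG14416 and CG3588, can be compared only as near absence against presence.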
